A study of Prunus persica with 8 samples.

Results

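TFL1 (Prupe.7G112600) and FT (Prupe.6G364900) were followed in the shoot tips of 8 peach trees, as 2 of the 26873 genes in the deposited table. They were selected by identifier, with no expression value in the rule, but with earlier results of these data known. The table carries no gene names, and TFL1 and FT are the names under which these identifiers were selected. Expression was measured by RNA-seq in branch tips of 4 pillar trees (tac1/tac1), whose branches grow upright, and 4 standard trees (TAC1/TAC1), with 1 library per tree. All were mature, untreated, field-grown siblings of the self-pollinated KV991636 population, whose grandparents were the pillar selection Kv93065 and "Weeping White". In the labels the pillar trees carry the numbers 4, 7, 8 and 10, the standard trees 7 to 10. A tree thus stands for 1 individual of a segregating population, and genes elsewhere in the genome also segregate among them. According to the labels, the standard trees also served an earlier experiment, and whether both habits were harvested together is not given in the sources used here.

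TFL1 and FT belong to the same family of small phosphatidylethanolamine-binding-like proteins and act in opposite directions on flowering. In Arabidopsis FT is made in the phloem of leaves, moves to the shoot apex and there joins the bZIP factor FD to switch on floral identity genes. TFL1 is made in the shoot meristem, competes with FT for FD and keeps the meristem vegetative. The balance of the pair helps to set whether a meristem makes a shoot or a flower, and silencing of TFL1 genes in apple shortens the juvenile phase.

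Reads recovered from the table came to between 18429259 and 23994336 per tree, the lowest in pillar tree 7. TAC1 (Prupe.2G194000), the gene that is mutated in pillar trees, lay between 0.802 and 1.27 TPM in the pillar and between 17.2 and 28.2 TPM in the standard trees, so that no tree went against its labelled habit. By the column names, lane 8 held pillar trees 4 and 7, and lane 6 the remaining 6 trees of both habits, so lane and growth habit can be told apart only in part. The shoot tip label was not checked against meristem markers. In bulk tissue, fewer cells of a type and less RNA per cell cannot be told apart.

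Neither TFL1 nor FT separated pillar from standard trees. TFL1 had nearly the same mean in both habits, whereas the mean of FT was 1.42 times as high in pillar trees, a difference smaller than the SD among pillar trees but larger than that among standard trees, and one that did not pass the test. Both genes varied more among trees of the same habit than most genes did. The ratio of TFL1 to FT ran from 0.241 to 1.80, and both extremes were pillar trees.

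TFL1, the keeper of the vegetative meristem, lies on the plus strand of Pp07 from 13879398 to 13881318 (peach genome version 2, whole gene region) and overlaps no other annotated gene region. Pillar trees 4, 7, 8 and 10 had TFL1 levels of 20.2, 4.66, 13.0 and 14.04 TPM (transcripts per 1000000, scaled to gene length). Standard trees 7, 8, 9 and 10 had levels of 6.04, 12.1, 15.7 and 12.0 TPM. The standard trees lay wholly within the range of the pillar trees, and the tree numbered 7 was the lowest of each habit. These values rested on 69 to 325 reads per tree.

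Pillar trees averaged 13.0 ± 6.37 TPM of TFL1 and standard trees 11.5 ± 4.00 TPM (mean ± SD over 4 trees). The log2 fold change of pillar over standard trees was 0.08 (standard error 0.43, adjusted p = 0.973 from limma over 20055 genes). Its 95% interval, from -0.89 to 1.05, reaches from a 1.85-fold decrease to a 2.08-fold increase, so changes within that range are not excluded by these trees. The interval is not a limit of detection. The two-sided exact permutation test gave p = 0.857, where 4 trees against 4 can reach 0.0286. The direction rested on single trees: the log2 fold change was -0.18 without pillar tree 4, -0.01 without pillar tree 10 and -0.18 without standard tree 7, and 0.49 without pillar tree 7. Within lane 6 it was 0.30 (adjusted p = 0.667 from limma).

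FT, the mobile inducer of flowering, lies on the minus strand of Pp06 from 30626215 to 30628368 and likewise overlaps no other gene region. Pillar trees 4, 7, 8 and 10 had FT levels of 14, 19.35, 22.9 and 7.79 TPM. Standard trees 7, 8, 9 and 10 had levels of 14.1, 9.45, 13.5 and 7.92 TPM. Pillar trees 7 and 8 exceeded every standard tree, pillar tree 4 fell among the standard trees, and pillar tree 10 had the lowest value of all 8. Between 160 and 448 reads per tree lay behind these values.

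Pillar trees averaged 16.0 ± 6.59 TPM of FT and standard trees 11.2 ± 3.03 TPM. The log2 fold change was 0.43 (95% interval -0.31 to 1.16, standard error 0.33, adjusted p = 0.902 from limma), and the two-sided exact permutation test gave p = 0.343. Pillar tree 10 had the most weight. Without it the log2 fold change was 0.72 with an unadjusted p of 0.0200 and an adjusted p of 0.906 from limma. Without pillar tree 8 the log2 fold change was 0.22, and within lane 6 it was 0.28 (adjusted p = 0.757 from limma). With unadjusted p-values of 0.853 for TFL1 and 0.223 for FT from limma, neither gene was among the 4.77% of tested genes at 0.05 or below (1.86% of tested genes were higher in pillar trees at that level). Neither met the criteria used in the study (unadjusted p up to 0.05, a fold change over 1.5 and on average 5 or more reads in both habits). The criteria were applied here to the limma values, so the calls are not the study's own. Of all tested genes 2.23% met them, 1.12% as higher in pillar trees. For both genes the habits overlapped, as they did for all but 2.93% of tested genes.

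**Figure D1:**
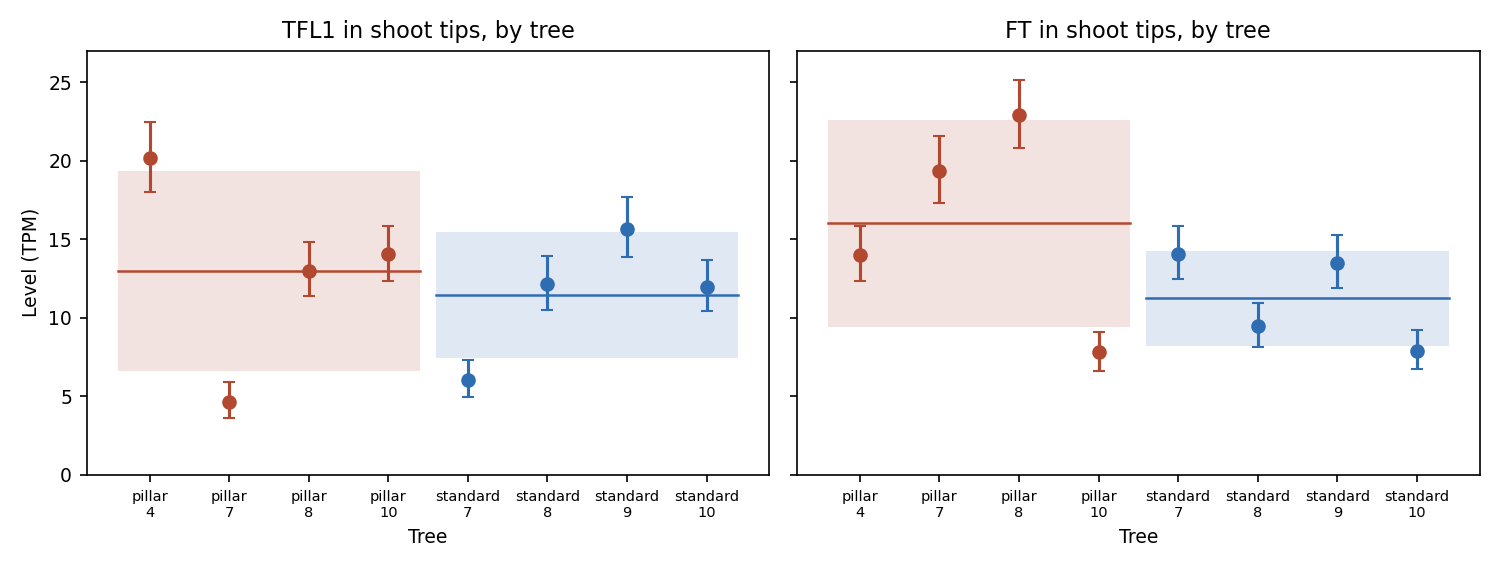
Level of TFL1 and FT (vertical axis, TPM) in each tree (horizontal axis, by habit and tree number), pillar trees in red and standard trees in blue. Bars on points are exact 95% Poisson intervals of the reads, lines are group means and shaded bands 1 SD (n = 4 trees each). Pillar tree 7 has the lowest TFL1 at 4.66 TPM and pillar tree 8 the highest FT at 22.9 TPM, and the bands of the habits overlap for both genes.

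In the order of TFL1 levels some neighbouring trees did not differ beyond counting error, which is a description of these libraries and much smaller than the spread among trees. Pillar tree 4 was highest, with an exact 95% Poisson interval of 18.0 to 22.5 TPM. Next came standard tree 9 and pillar trees 10 and 8, then standard trees 8 and 10, each with an interval that overlapped its neighbour in the order. Standard tree 7 (4.93 to 7.31 TPM) and pillar tree 7 (3.63 to 5.90 TPM) were lowest, with intervals that overlapped each other and no other tree.

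The order by FT was different. Pillar trees 8 (20.8 to 25.1 TPM) and 7 (17.3 to 21.6 TPM) stood highest and overlapped only each other. Standard tree 7, pillar tree 4 and standard tree 9 came next with overlapping intervals, together reaching from 11.9 to 15.9 TPM. Standard trees 8 and 10 and pillar tree 10 were lowest, with intervals between 6.63 and 10.9 TPM.

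Trees of the same habit differed far beyond counting error. The variance of TFL1 reads, scaled to the total of each tree, was 39.62 times the value that counting alone gives among pillar trees and 24.95 times among standard trees. For FT the corresponding factors were 60.85 and 16.99. On the log2 scale the residual SD within a habit was 0.72 for TFL1 and 0.54 for FT, against a median of 0.27 over all tested genes. It was larger than that of 92.75% of the tested genes for TFL1 and 86.2% for FT, although both were of middling level, with 45.3% and 48.6% of tested genes below them in mean TPM. Across the 8 trees the highest level was 4.32 times the lowest for TFL1 and 2.94 times for FT.

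Most of the genes beside them varied less. Of the 12 nearest genes, 3 on each side of each member, 10 had a mean of at least 3 TPM, and their highest level over the 8 trees was between 1.28 and 1.74 times their lowest. For TFL1 these included Prupe.7G112400, which ends 5713 bases before it and ranged from 44.7 to 62.7 TPM, and Prupe.7G112800, which starts 5400 bases after it and ranged from 18.2 to 28.0 TPM. For FT, near the distal end of Pp06, the adjoining genes Prupe.6G364800 (51.6 to 88.7 TPM) and Prupe.6G365000 (6.25 to 10.9 TPM) lay 5521 and 5200 bases away. TFL1 and FT thus had a wider range over the trees than each of these 10 genes. The other 2, both beside TFL1, had lower means. Prupe.7G112700, 4108 bases after TFL1, went from 0.256 to 2.37 TPM, a wider ratio (9.24) than that of TFL1, and Prupe.7G112500 from 0 to 1.28 TPM.

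Since both members were read in the same library, their ratio does not depend on its depth. TFL1 TPM divided by FT TPM was 1.44, 0.241, 0.568 and 1.80 in pillar trees 4, 7, 8 and 10. In standard trees 7, 8, 9 and 10 it was 0.429, 1.28, 1.16 and 1.51. In TPM, FT exceeded TFL1 in 3 trees, pillar trees 7 and 8 and standard tree 7, and TFL1 exceeded FT in the other 5. TPM was scaled to the whole gene region, 1921 bases for TFL1 and 2154 for FT, not to the transcript. Whether a ratio lies above or below 1 depends on these lengths, whereas the comparison of the ratio between trees does not. In pillar tree 7 FT was 4.15 times TFL1, from the lowest TFL1 and the second highest FT.

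The mean log2 ratio, with 0.5 TPM added to each gene, was -0.35 ± 1.27 in pillar and -0.01 ± 0.78 in standard trees (SD, n = 4 each). The difference of -0.34 was smaller than either SD, and no test was made of it. Leaving out single trees moved it between -0.73 and 0.19, and within lane 6 it was 0.02. The summed level of the pair was 29.0 ± 7.09 TPM in the pillar and 22.7 ± 4.40 TPM in the standard trees, again with overlapping ranges (21.8 to 35.9 against 19.9 to 29.2 TPM).

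In reads, without scaling to length, TFL1 made up 17.7% of the TFL1 and FT reads in pillar tree 7 (95% Wilson interval 14.2 to 21.8%) and 61.6% in pillar tree 10 (56.9 to 66.2%). Pillar trees 4 and 8 lay between, at 56.2% and 33.6%. Among standard trees, tree 7 had 27.7% (23.4 to 32.4%) and trees 8, 9 and 10 had 53.4%, 50.8% and 57.5%. Standard trees 8, 9 and 10 had overlapping intervals, whereas no interval of pillar trees 7 and 8 or of standard tree 7 reached 50%.

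**Figure D2:**
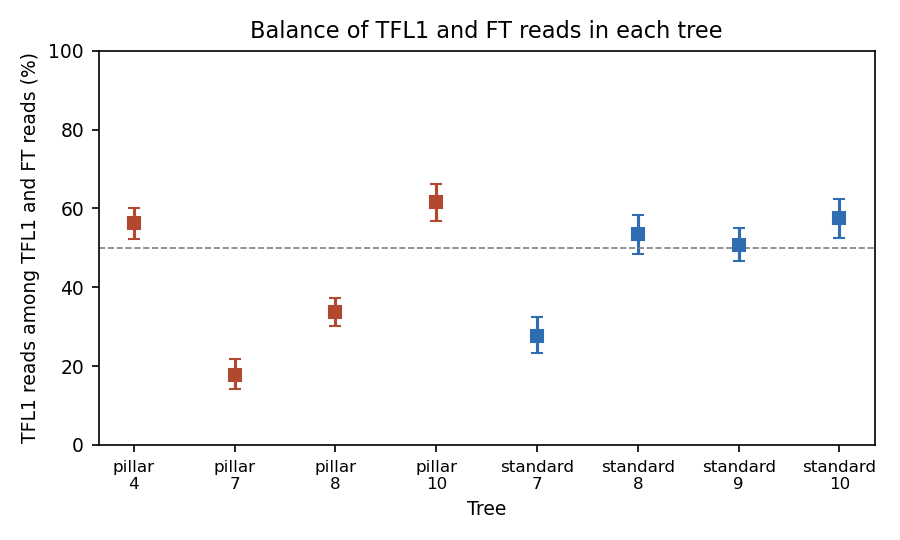
Share of TFL1 reads among the reads of TFL1 and FT in each tree, in percent, with 95% Wilson intervals for counting error (pillar red, standard blue, dashed line at equal reads). Pillar trees cover 17.7 to 61.6% and standard trees 27.7 to 57.5%, with trees of both habits on each side of the line.

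Across trees, no relation between the levels of TFL1 and FT passed the test. Over the 8 trees Pearson's r of log2(TPM + 0.5) between TFL1 and FT was -0.31 (two-sided exact permutation test, p = 0.453) and Spearman's rho was -0.26 (exact permutation, p = 0.536). Without the 2 trees farthest from the median of TFL1, which were the trees numbered 7 of each habit, r was 0.30 (exact permutation, p = 0.556), so the negative sign rested on them. Within lane 6 (n = 6 trees) r was -0.14 (exact permutation, p = 0.840). This was the only relation tested. Pillar tree 8 combined a TFL1 level in the middle of the order with the highest FT, and pillar tree 10 a similar TFL1 level with the lowest FT.

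**Figure D3:**
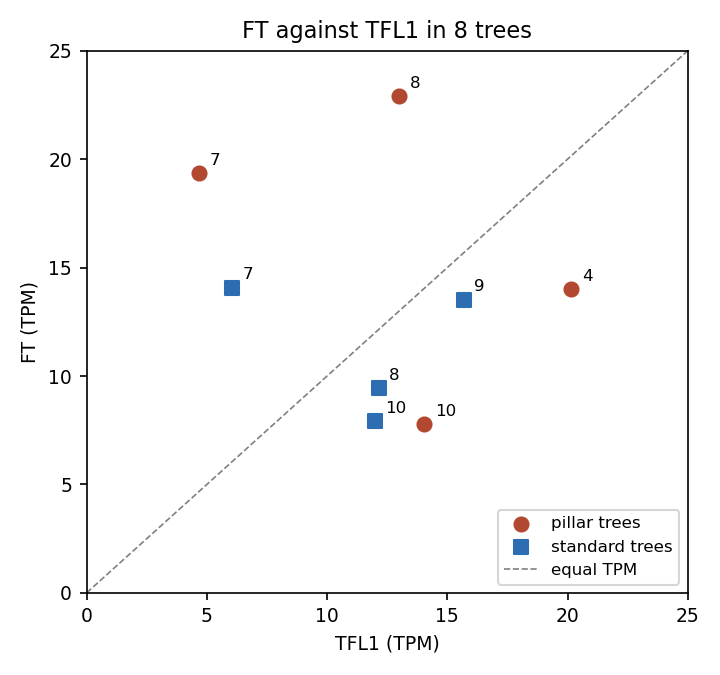
FT against TFL1, both in TPM, for 4 pillar trees (red circles) and 4 standard trees (blue squares), labelled by tree number, with a dashed line at equal TPM. The side of the line on which a tree lies depends on the gene region lengths used for TPM. Pillar trees 7 and 8 and standard tree 7 lie above the line and the other 5 trees below it, with no common trend (r = -0.31).

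Other genes of the flowering pathway could be named only from the study's own list of differentially expressed genes, which was chosen on these 8 trees. Their counts are therefore no independent evidence of a change. Of 6 such genes, 5 passed the minimum level. All 5 had an unadjusted p of up to 0.05 from limma, against 4.77% of tested genes, with 4 higher in pillar trees (1.86% of tested genes) and 1 lower. Their median log2 fold change was 0.50 against -0.09 over all tested genes. None had an adjusted p-value under 0.05 (0.12% of tested genes did), and the habits overlapped for each of them. With each tree left out in turn, or within lane 6, the lowest adjusted p of these 5 genes was 0.293 from limma.

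Of the 3 genes listed upstream of or beside FT, the match to CONSTANS-LIKE 2 (COL2, Prupe.3G245100), a relative of CONSTANS, the day-length dependent activator of FT in Arabidopsis, averaged 49.3 ± 11.5 TPM in the pillar and 34.8 ± 6.92 TPM in the standard trees. The match to TEMPRANILLO 1 (TEM1, Prupe.1G305900), a repressor of FT in Arabidopsis, had 38.7 ± 14.6 against 23.9 ± 5.94 TPM. FLOWERING PROMOTING FACTOR 1 (FPF1, Prupe.1G461600), which promotes flowering in the apical meristem through gibberellin signalling in Arabidopsis and is not known to act on FT, had 43.6 ± 31.5 against 15.7 ± 11.5 TPM. The adjusted p-value of each was 0.902 from limma, with log2 fold changes of 0.49, 0.64 and 1.55 and standard errors of 0.20, 0.27 and 0.65. FPF1 varied more than either member, from 3.50 TPM in standard tree 7 to 89.4 TPM in pillar tree 7. The trees with the lowest TFL1 thus held opposite extremes of FPF1, and over the 8 trees Pearson's r between FPF1 and TFL1 was -0.02.

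Downstream of the pair, the match to CAULIFLOWER (CAL, Prupe.3G307800), a floral identity gene, averaged 19.5 ± 3.27 TPM in the pillar and 13.8 ± 3.05 TPM in the standard trees, a log2 fold change of 0.50 with an adjusted p of 0.902 from limma (standard error 0.17). Its annotated region shares bases with that of a neighbouring gene, and its level is uncertain to that extent. APETALA3 (AP3, Prupe.1G371300), a petal and stamen identity gene, was at 5.09, 0.917, 2.48 and 5.96 TPM in pillar trees 4, 7, 8 and 10, where the standard trees had 4.94 to 11.2 TPM. The fitted difference was -1.15 on the log2 scale (standard error 0.48, adjusted p = 0.902 from limma). The pillar trees with the lowest AP3, trees 7 and 8, were those with the highest FT. Standard trees 7, 8, 9 and 10 had 5.25, 4.94, 11.2 and 9.50 TPM of AP3. Among them tree 8 had the lowest AP3 but tree 7 the highest FT, followed by tree 9, which had the highest AP3. AGL6 (Prupe.2G287000), another floral MADS-box gene, was under the minimum level, at 0.334 to 0.991 TPM in the pillar and 0 to 0.427 TPM in the standard trees. Standard tree 7 had no AGL6 read, and its exact 95% Poisson interval reaches up to 0.132 TPM. Reads of AP3 were present in the tips of all 8 trees, and the part of floral tissue in the levels of TFL1 and FT was not tested.

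In Arabidopsis FT is made mainly in leaves, and leaves had been removed from the tips. The search for leaf genes took in 4 genes of the study's list, all chosen on these trees. They are the Rubisco small subunit gene RBCS and 3 matched to the light-induced ELIP1. The ELIP1 matches are not markers of leaf cells as such. They lie close together on Pp01, between 1492360 and 1508781, and need not vary separately. All 4 genes were lower in pillar trees at an unadjusted p of up to 0.05, which 4.77% of tested genes reached in either direction, but no adjusted p was under 0.05 in limma. The habits did not overlap for 2 of them, as for 2.93% of tested genes. Since the study chose these genes on the same trees, nothing is read from the counts. The summed level of the 4 genes, which came mostly from the ELIP1 matches, was 276 to 748 TPM in the pillar and 826 to 2387 TPM in the standard trees. None of the genes was at 0 in any tree. RBCS (Prupe.1G311400) had 27.3, 5.14, 4.51 and 7.58 TPM in pillar trees 4, 7, 8 and 10 and 28.1 to 60.6 TPM in standard trees. The fitted difference was -2.24 on the log2 scale (standard error 0.51, adjusted p = 0.457 from limma). Without pillar tree 4, the pillar tree with the most RBCS, it was -2.79 with an adjusted p of 0.0119 from limma. With any other tree left out the adjusted p was 0.355 to 0.9996, and within lane 6 it was 0.0736, all from limma. RBCS is a multigene family whose copies can share reads. The trees with the most FT, pillar trees 8 and 7, had the lowest RBCS, but the ELIP1 matches did not follow it. Pillar tree 8 had the highest summed level of the 4 genes among pillar trees (748 TPM), with 301.6 TPM of Prupe.1G021400 and 440.8 TPM of Prupe.1G021800, and pillar tree 7 the lowest (276 TPM). The part of leaf tissue in the FT levels was not tested.

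The genes whose pattern was most like that of each member were sought among the 15174 other genes that averaged 5 TPM or more, by Pearson's r of log2(TPM + 0.5) over the 8 trees. All genes of a tree share its library and depth, and with so many genes over 8 trees these values are a description. For TFL1, 58 genes had an r over 0.9 and 10 under -0.9. For FT these numbers were 5 and 21. More genes thus had a high positive than a high negative r with TFL1, and the reverse held for FT.

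The gene most like TFL1 was Prupe.3G133100 (Pp03, 13837605 to 13841568, r = 0.979), at 10.6 TPM in pillar tree 4 and 1.83 TPM in pillar tree 7. It was followed by Prupe.4G080000, Prupe.2G201000, Prupe.1G283000 and Prupe.2G213600, with r from 0.961 to 0.967. All 5 were highest in pillar tree 4 and lowest in pillar tree 7, as TFL1 was, which follows from how they were chosen. Within lane 6 their r with TFL1 was 0.885 to 0.963, but its trees are among those on which they were chosen. The most opposite gene was Prupe.3G058800 (Pp03, 4162087 to 4164306, r = -0.985), at 27.7 TPM in pillar tree 4 and 44.8 TPM in pillar tree 7. Next were Prupe.3G053500 (r = -0.947), which lies on the same chromosome from 3764043 to 3769717, and Prupe.5G165500 (r = -0.937). The files and tables used here name none of these genes.

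For FT the likest genes were Prupe.1G026200 (r = 0.939) and Prupe.7G240100 (r = 0.939), followed by Prupe.3G258700, Prupe.1G026100 and Prupe.1G378000 with r from 0.904 to 0.929. Prupe.1G026200 and Prupe.1G026100 lie close together on Pp01, from 1817898 to 1818559 and from 1808017 to 1808869. Both ranged far more widely than FT, from 11.1 to 89.0 TPM and from 9.74 to 126 TPM. Prupe.7G240100, at 5.03 to 7.18 TPM, and Prupe.3G258700, at 61.9 to 71.2 TPM, followed FT over a narrow range. Prupe.1G378000, matched to RAD-like 6 of the MYB-like family, was highest in pillar tree 8, at 20.4 TPM, as FT was. Within lane 6, whose trees are among those on which these 5 genes were chosen, their r with FT was 0.903 to 0.983. The most opposite genes were Prupe.3G212200, Prupe.1G261500 and Prupe.8G133500, with r from -0.956 to -0.943, all lowest in pillar trees 7 and 8.

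Under the processing alternatives FT was higher in pillar trees in every case, with log2 fold changes from 0.22 to 0.72 and adjusted p-values from 0.354 to 0.9996 in limma. For TFL1 the log2 fold change ranged from -0.18 to 0.49 and was below 0 under 4 of 18 alternatives, with adjusted p-values from 0.667 to 0.9996.

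**Figure D4:**
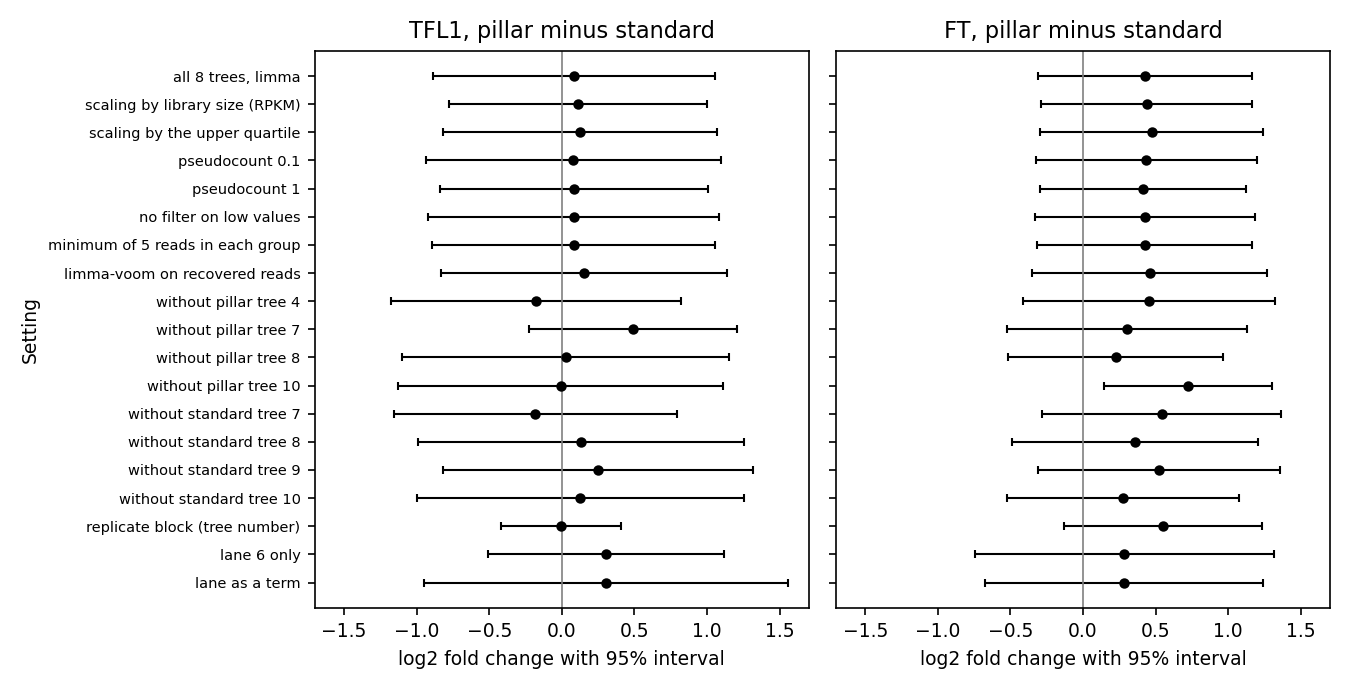
Log2 fold change of TFL1 and FT, pillar minus standard, with all 8 trees and under each of 18 alternatives, with 95% intervals from limma. FT lies between 0.22 and 0.72 throughout and TFL1 on both sides of 0, and every interval except that of FT without pillar tree 10 includes 0.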

How the data were processed

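Trees were grouped by the growth habit in their labels. The authors trimmed 50-bp reads, mapped them in CLC Genomics Workbench against version 2 of the peach genome, and deposited 1 table of TPM (transcripts per 1000000, scaled to the length of the gene region and to the total of each tree). It also holds 6 columns of the authors' own comparison, which were not used. Of its 53746 entries, the 26873 that repeat a gene are 0 in every tree and were left out. Within each tree TPM times region length rises in whole steps of 1 read (100% of nonzero values under 10000 reads, within 0.05 reads), so reads were recovered. They total 18429259 to 23994336 per tree.

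The growth habits were compared with the R package limma 3.58.1 (functions lmFit and eBayes, trend option on), applied to log2(TPM + 0.5) of the 20055 genes that averaged 0.5 TPM or more. No covariate was used, and p-values were adjusted over these genes by Benjamini-Hochberg. Exact tests, Wilson and Poisson intervals used Python 3.11.15 with scipy 1.17.1. These intervals cover counting error only. The comparison was also run on simulated counts with the same dispersion for every gene and no lane effect. Genes as variable as TFL1 and FT were not simulated.

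The members and lists were chosen with earlier results of these data known. Genes named are the members, TAC1, in each list of flowering or leaf gene names matched to the study's differentially expressed genes those with an unadjusted p of up to 0.05 and the 4 with the highest mean (which took in every match), and the 5 genes most like and 3 most opposite to each member over the trees (mean of at least 5 TPM). The other names searched for, among them further genes of the TFL1 and FT family, shoot meristem and phloem markers, were not analysed here. Alternatives were scaling by library size (RPKM from recovered reads) or upper quartile, pseudocounts of 0.1 and 1, all genes without a filter, a minimum of 5 reads in each group, limma-voom on recovered reads, leaving out each tree, the tree number as a block, and the lane.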

Additional observations from a re-analysis of the deposited data

Results flagged for a closer look

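Among the 28 groups of 4 trees examined (each named gene of the lists, and the TFL1 to FT ratio, in each habit), 2 held a tree far from the other 3. For genes this was judged on TPM, not on the log2 scale on which the habits were compared. Chance gives about 1 in 20 for normally distributed values, and whether TPM values follow that distribution was not tested. The 2 groups among 28 are therefore described only, and are not read as more than chance gives. Neither of these 2 groups was of TFL1, FT or their ratio. The Rubisco gene RBCS reached 27.3 TPM in pillar tree 4, while the remaining pillar trees had 4.51 to 7.58 TPM. The ELIP1 match Prupe.1G021600 reached 142.9 TPM in standard tree 8, while the remaining standard trees had 0.915 to 9.03 TPM.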

How the results depend on the processing

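None of the alternatives brought TFL1 or FT under an adjusted p of 0.05 in limma. The log2 fold change of TFL1 went from 0.08 to between -0.18 and 0.49 with trees left out in turn, and was -0.0082 with the tree number as a replicate block. That of FT was 0.22 to 0.72 with trees left out and 0.55 with the block. The difference between habits in the TFL1 to FT log2 ratio moved by less than its pooled SD of 1.05 under all 15 alternatives. That SD is larger than the difference itself (-0.34), so the rule says little about its stability. The difference was -0.73 to 0.19 when trees were left out, and above 0 without pillar tree 7. It was 0.02 within lane 6 and -0.56 with the block. TAC1 kept its call throughout (-4.49 to -3.43). The number of genes that met the study's criteria, applied to the limma values, was 447 with all trees and 349 to 732 with trees left out (732 without pillar tree 4). It was 1098 with the replicate block, 1198 in lane 6 and 1159 with lane as a term. The cause of these shifts was not tested. Deviations of same-numbered trees correlated by 0.29, 0.10 and -0.09 for numbers 7, 8 and 10. The highest correlation of the same pillar trees with a standard tree of another number was 0.13, 0.24 and 0.29. The same-numbered tree was thus the closest for number 7 only. These few values do not settle whether the numbers pair the trees. The fits without trees and within lane 6 for genes of the lists were chosen after the data were seen.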
